A study of Mus musculus with 20 samples.

Results

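Histone deacetylases remove acetyl groups from lysines of histones and other proteins. The 10 genes described here, of classes I, II and IV, are Hdac1, Hdac2, Hdac3, Hdac4, Hdac5, Hdac6, Hdac7, Hdac8, Hdac9 and Hdac11, found by symbol among the 78258 gene identifiers of an exonic count table. All 10 had counts in every library and passed the filter on low counts that left 28564 genes to test. Their transcripts were compared in lumbar dorsal root ganglia (DRG, which hold the cell bodies of sensory neurons) on both sides of 10 male mice after one sciatic nerve had been cut.

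The 20 libraries fell into 4 groups of 5, the contralateral and ipsilateral ganglia of control mice and of conditional knockouts (cKO). The cKO mice were Ahr fl/fl Thy1CRE-ERT2/EYFP, in which the Thy1 promoter drives a tamoxifen-inducible Cre recombinase, and the controls were Ahr f/f or f/+, so that, per the protocol, all mice carried at least 1 floxed Ahr allele, while sample titles call the controls wildtype. The library names hold ff for all 5 control mice used here and ffcre for the cKO mice. All mice were 17 weeks old when tamoxifen was given at 100 mg/kg daily for 5 days, the nerve was cut 4 weeks later, and ganglia L4 to L6 were taken 1 day after that. No uninjured mouse or untreated group was analysed here, so the contralateral ganglia come from lesioned animals. One label field names a spinal cord injury, and the protocol of sciatic nerve transection was followed.

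Class I enzymes (Hdac1, Hdac2, Hdac3 and Hdac8) act mostly in the nucleus, and all but Hdac8 work within corepressor complexes. Class IIa enzymes (Hdac4, Hdac5, Hdac7 and Hdac9) have weak catalytic activity, bind MEF2 transcription factors and move between nucleus and cytoplasm when kinases phosphorylate them. Hdac6, of class IIb, is a cytoplasmic deacetylase of tubulin, and Hdac11 is the sole class IV enzyme. In sensory neurons, export of HDAC5 from the nucleus after axon injury and the deacetylation of axonal tubulin have been studied as steps of the injury response, and both concern the protein, which these data do not measure.

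Libraries held 76.2 to 118.5 M counts (M, mega) and no member had fewer than 546 counts in any library. Markers of sensory neurons summed to 10029 to 12069 CPM (the counts of a gene relative to the library's total, in mega counts) per library, with all 10 present, and Atf3, an injury-induced transcription factor, separated the sides in both genotypes. Ahr had 21.3 to 27.2 CPM in the control and 19.5 to 21.0 CPM in the cKO contralateral libraries, without overlap, but the edgeR difference (-0.25, adjusted p 0.103) did not pass. On the ipsilateral side the ranges of Ahr overlapped, at 30.2 to 38.1 and 28.9 to 36.8 CPM (-0.11, adjusted p 1). Thy1, whose promoter drives the Cre recombinase, had 602.3 to 679.1 CPM in control and 1018 to 1176 CPM in cKO contralateral libraries (edgeR 0.77, adjusted p 1.386e-08). On the ipsilateral side it had 655.2 to 698.6 and 944.2 to 1116 CPM (edgeR 0.63, adjusted p 4.650e-07). The source of these Thy1 reads was not tested. In such bulk tissue, fewer cells of a type and less RNA per cell cannot be told apart.

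Upstream sequences are shown for the members whose transcripts moved on the lesioned side in both genotypes, Hdac11, Hdac5 and Hdac9. They come from RefSeq windows of GRCm38.p6, with 250 bases before and 50 after a start, which were found for 8 of the 10 members (12 windows, as Hdac7 and Hdac9 have several). All lie outside annotated exons, and capitals mark a match to a motif searched on both strands. For Hdac11, bases -250 to -151 from the start, chr6:91156565-91156664 on the plus strand, hold CACGC, which is GCGTG, the core of the AhR response element, read on the other strand:
Hdac11: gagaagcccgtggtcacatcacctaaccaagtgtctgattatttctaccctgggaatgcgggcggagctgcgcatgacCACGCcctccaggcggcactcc
For Hdac5, the 250 bases before the start, chr11:102230173-102230422 on the minus strand, hold 12 CpG sites at a GC content of 60.8%:
Hdac5: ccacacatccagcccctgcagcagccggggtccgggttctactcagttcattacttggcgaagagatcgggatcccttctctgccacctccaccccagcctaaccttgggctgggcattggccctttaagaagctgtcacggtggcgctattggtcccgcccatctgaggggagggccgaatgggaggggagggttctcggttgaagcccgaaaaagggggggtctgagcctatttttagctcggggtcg
For the outer start of Hdac9, the 250 bases at chr12:34917096-34917345 on the minus strand hold 0 CpG sites at a GC content of 44.4%:
Hdac9 outer: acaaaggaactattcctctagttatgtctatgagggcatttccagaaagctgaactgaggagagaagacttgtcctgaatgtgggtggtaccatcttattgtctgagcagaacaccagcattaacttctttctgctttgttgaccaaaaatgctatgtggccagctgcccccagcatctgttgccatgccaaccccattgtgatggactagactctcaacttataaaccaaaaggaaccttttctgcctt
For a start inside the Hdac9 gene, the 250 bases at chr12:34528890-34529139 on the minus strand hold a match to TGANTCA, the AP-1 motif, at -57 from that start:
Hdac9 internal: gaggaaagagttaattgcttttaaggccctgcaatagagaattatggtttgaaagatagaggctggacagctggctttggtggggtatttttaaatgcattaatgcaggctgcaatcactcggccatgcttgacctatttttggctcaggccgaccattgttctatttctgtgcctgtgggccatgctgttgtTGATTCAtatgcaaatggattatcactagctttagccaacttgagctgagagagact
Over the whole windows, GCGTG was found in 3 of 12 (Hdac11, Hdac7 and Hdac6), TGANTCA in 2 (Hdac9 and Hdac7) and the cyclic AMP response element TGACGTCA in 0. Among all 32851 promoters of the table, GCGTG was held by 32.4%, TGANTCA by 7.81% and TGACGTCA by 1.79%. A match in so short a window is only a description of its letters, and binding was not measured.

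Levels of different genes were compared as CPM per kilobase of merged exons. In the control contralateral ganglia Hdac11 stood first at 27.6 ± 0.249 CPM per kb (SD, n = 5), followed by Hdac2 at 25.4 ± 0.808 and Hdac3 at 15.4 ± 0.528. Hdac5 (7.94 ± 0.302) and Hdac1 (7.68 ± 0.311) came next with overlapping ranges, then Hdac6 at 5.39 ± 0.336. Hdac4 at 3.73 ± 0.161, Hdac9 at 3.25 ± 0.135, Hdac8 at 1.73 ± 0.113 and Hdac7 at 1.23 ± 0.139 CPM per kb closed the order. Per kb, the class IV enzyme and the class I enzymes Hdac2 and Hdac3 were thus the most abundant of these 10 transcripts in the contralateral ganglia of control mice. Every neighbouring pair except Hdac5 and Hdac1 had ranges that did not overlap. The order depends on the division by length: in CPM, Hdac2 (113.8) stood above Hdac11 (106.3) and Hdac5 (69.7) above Hdac3 (62.3) in these libraries.

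The order per kb differed on the lesioned side of both genotypes. Hdac2 then stood above Hdac11, with 25.2 ± 0.411 against 21.2 ± 0.242 CPM per kb in control and 25.3 ± 0.561 against 21.5 ± 1.25 in cKO ganglia (n = 5). Hdac1 stood above Hdac5 and Hdac9 above Hdac4, again with ranges that did not overlap, while Hdac8 and Hdac7 overlapped. In the cKO contralateral ganglia the order was that of the control side, except that Hdac1 at 8.23 ± 0.544 and Hdac5 at 8.14 ± 0.274 CPM per kb changed places within overlapping ranges, and that Hdac4 and Hdac9, and Hdac8 and Hdac7, overlapped as well. Without division by length, Hdac2 and Hdac11 (112.7 and 81.5 CPM) kept their contralateral order on the control lesioned side, as did Hdac5 and Hdac1 (61.3 and 26.8 CPM). Hdac9 and Hdac4 changed order in CPM as well, from 47.7 and 59.0 to 55.7 and 52.5 in control mice.

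**Figure D1:**
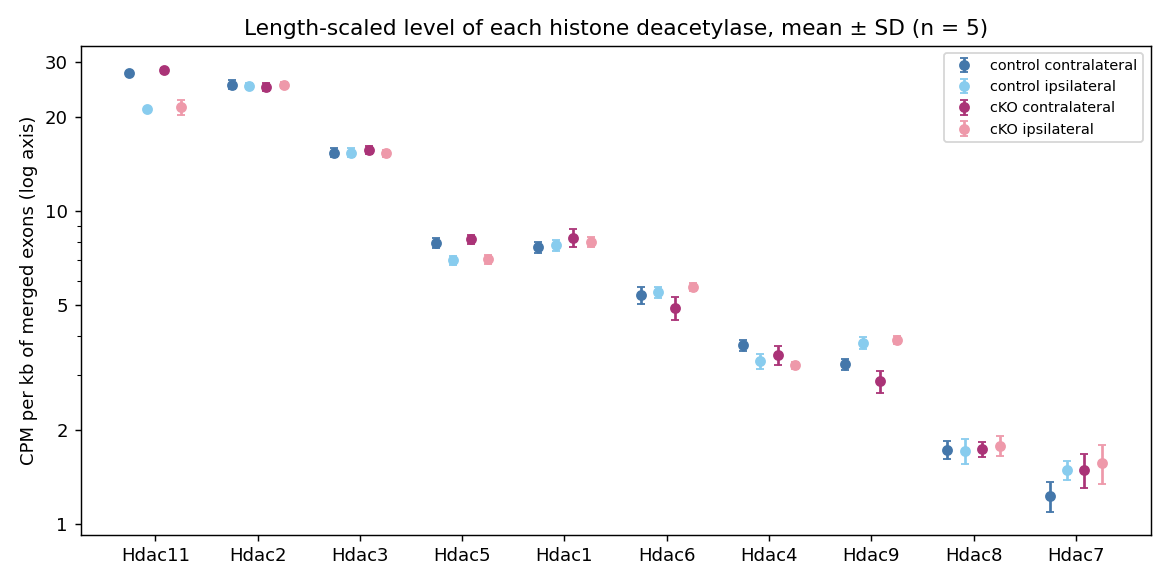
Points give the mean and bars the SD of CPM per kb of merged exons on a log axis, for each gene in the 4 groups of 5 libraries, with the genes ordered by their control contralateral mean. Hdac11 lies above Hdac2 in the contralateral groups (27.6 against 25.4 in control) and below it in the ipsilateral groups (21.2 against 25.2).

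Transection was then examined as the difference between ipsilateral and contralateral ganglia. In control mice 5 of the 10 genes passed an adjusted p under 0.05 in edgeR, Hdac7 and Hdac9 higher and Hdac4, Hdac5 and Hdac11 lower, where 29.9% of all tested genes passed (13.8% higher and 16.0% lower). In cKO mice 4 passed, Hdac6 and Hdac9 higher and Hdac5 and Hdac11 lower, where 31.3% of all tested genes passed (16.2% higher and 15.1% lower). Hdac5, Hdac9 and Hdac11 passed in both genotypes and the class I genes in neither. Sizes were small: the median absolute log2 fold change of the members was 0.1 in control and 0.0921 in cKO mice, beside 0.164 and 0.168 over all tested genes. The tested genes reach down to the filter on low counts, whereas members had at least 546 counts per library. These medians were therefore not matched for level. The median signed values were -0.0053 and -0.0099, beside -0.0047 and -0.03. Groups that did not overlap were found for 4 members in each genotype, where 23.6% and 20.2% of all tested genes did not overlap.

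**Figure D2:**
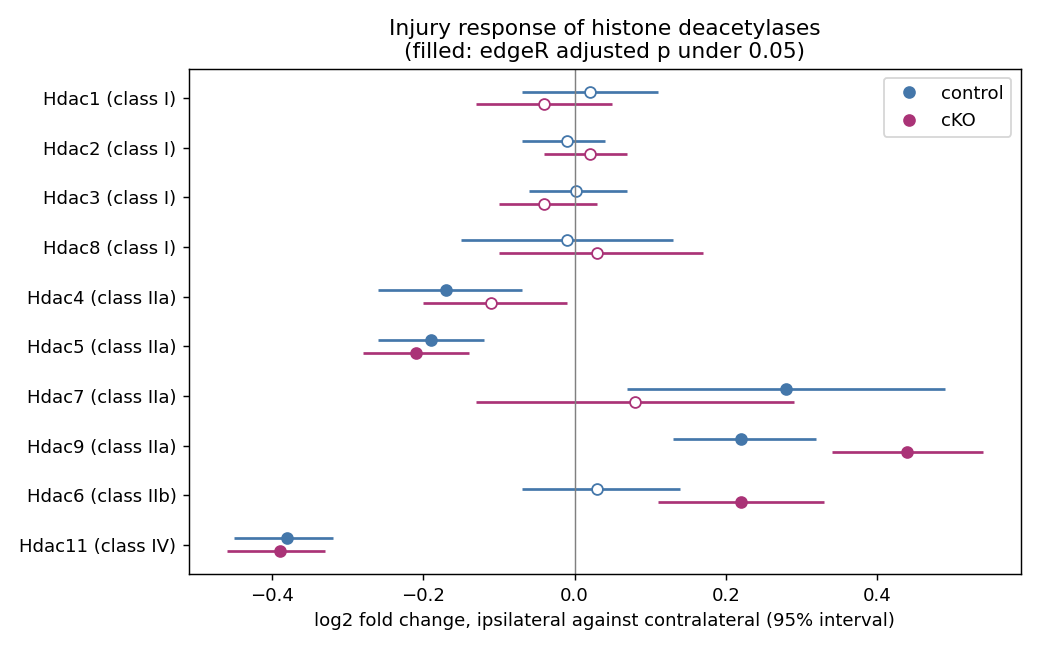
Points give the edgeR log2 fold change of ipsilateral against contralateral ganglia with its 95% interval, in control and cKO mice (n = 5 per group), filled where the adjusted p was under 0.05. Hdac11 lies farthest below 0 in both genotypes (-0.38 and -0.39). Hdac9 lies above 0 in both (0.22 and 0.44), with Hdac7 higher than Hdac9 in control mice (0.28). The intervals of Hdac1, Hdac2, Hdac3 and Hdac8 all include 0.

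Hdac11, which removes long-chain fatty acyl groups from lysines as well as acetyl groups, fell the most of the 10 genes. Its control contralateral libraries had 106.3, 107.3, 105.6, 107.1 and 105.0 CPM for mice H62, H63, H65, H96 and H97, and the ipsilateral ones 81.2, 80.2, 81.9, 81.6 and 82.8 CPM. In cKO mice H61, H64, H95, H99 and H100 it had 107.8, 107.0, 108.1, 108.2 and 111.6 CPM on the contralateral side and 83.3, 74.9, 81.8, 87.4 and 85.7 CPM on the ipsilateral side. Every ipsilateral library was below every contralateral one, and the transcript was lower in 10 of 10 mice. The edgeR log2 fold change was -0.38 (SE 0.0306, adjusted p 4.866e-09) in control and -0.39 (SE 0.0305, adjusted p 2.378e-09) in cKO mice, which are changes of -23.3% and -23.9%. The interaction, which tests the difference between the genotypes, was -0.01 (95% interval -0.10 to 0.08).

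Control libraries were tight for Hdac11, with an SD of 0.957 CPM on the contralateral and 0.933 CPM on the ipsilateral side, whereas the cKO ipsilateral libraries had an SD of 4.81 CPM, with H64 lowest. Over the 10 sensory neuron markers the median log2 fold change was -0.02 in control and -0.09 in cKO mice, with 3 and 2 markers called lower and 0 higher. Of the 5 satellite glia markers, 2 were called higher in each genotype, and their sum was 630.9 to 694.5 CPM on the contralateral and 778.5 to 850.8 CPM on the ipsilateral side of control mice, and 619.4 to 773.7 and 766.2 to 810.2 CPM in cKO mice. All 9 macrophage (median 0.50) and 7 neutrophil (0.57) markers had higher means after injury in control mice, with 1 and 0 called, and in cKO mice 7 of 9 (0.20) and 1 of 7 (-0.12) had, with 0 called. Of 5 muscle and 4 erythroid markers, 5 (median 0.54) and 3 (0.04) were higher in control mice. In cKO mice 0 (-3.39) and 0 (-0.44) of them were higher, with 0 called in either genotype. The part of these lists in the injury values of the deacetylases was not tested. Exons of Hdac11 overlap an antisense gene (Gm14573) over 2.49% and an unclassified transcript on the opposite strand (Gm44002) over 15.4% of their length in GENCODE M21. The strand setting of the counting is not given in the sources used here, so reads of these genes cannot be told apart from those of Hdac11.

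The genes most like Hdac11 in log2 CPM over the 20 libraries, among 11828 genes averaging 5 CPM or more, were Unc119, Adra2c and Coro1a, with Pearson r of 0.985, 0.984 and 0.981. Unc119 encodes a chaperone of lipid-modified proteins, Adra2c an adrenergic receptor and Coro1a an actin-binding protein. These correlations pool both sides and so contain the injury difference, which was -0.58, -0.65 and -0.41 in control mice for the named genes. Within the 10 contralateral libraries the same r were 0.0961, 0.835 and 0.364, and within the 10 ipsilateral libraries 0.918, 0.789 and 0.893. The r of Unc119 and Coro1a were thus lower within the contralateral libraries, but a difference between r was not tested. The pooled values hold both libraries of each mouse.

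Hdac5, a class IIa enzyme, fell in both genotypes. Control libraries had 68.2, 72.5, 67.5, 72.7 and 67.7 CPM (H62, H63, H65, H96, H97) on the contralateral and 61.8, 62.8, 62.1, 57.6 and 62.1 CPM on the ipsilateral side. The cKO libraries had 70.2, 68.5, 73.6, 70.9 and 74.3 CPM (H61, H64, H95, H99, H100) on the contralateral and 64.7, 60.5, 59.3, 60.8 and 63 CPM on the ipsilateral side. The sides did not overlap in either genotype, and Hdac5 was lower in 10 of 10 mice, with H96 showing the largest fall among controls. The edgeR log2 fold changes were -0.19 (SE 0.0333, adjusted p 1.865e-04) and -0.21 (SE 0.0333, adjusted p 3.923e-05), or -12.1% and -13.8%.

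Hdac4, the class IIa relative of Hdac5, passed in control mice alone. It had 62.4, 59.2, 59.0, 55.2 and 58.9 CPM in the control contralateral and 55.0, 53.5, 48.8, 50.5 and 54.9 CPM in the control ipsilateral libraries, in the mouse order given for Hdac5. In cKO mice it had 57.7, 51.5, 55.7, 58.8 and 50.3 CPM on the contralateral and 50.6, 52.8, 50.9, 49.6 and 50.5 CPM on the ipsilateral side. The control sides did not quite meet, while in cKO mice H64 and H100 were already low on the contralateral side and did not fall. The edgeR log2 fold change was -0.17 (SE 0.0443, adjusted p 0.00646) in control and -0.11 (SE 0.0444, adjusted p 0.0732) in cKO mice, and the interaction of 0.06 (95% interval -0.07 to 0.19, adjusted p 0.768) did not show that they differ. The control call was lost without H65 (-0.13, adjusted p 0.055), and Hdac4 passed in cKO mice without H64 (-0.14, adjusted p 0.0354) or H100 (-0.13, adjusted p 0.0417), while without H99 it was at -0.07. Exons of Hdac4 overlap a long noncoding RNA on the opposite strand (Gm26720) over 22.4% of their length, and its reads cannot be told apart here.

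Hdac9, whose gene also makes a form without the deacetylase domain, rose in both genotypes. Control libraries had 45.5, 46.6, 49.3, 46.9 and 50.2 CPM on the contralateral and 58.1, 56.3, 55.7, 51.7 and 56.9 CPM on the ipsilateral side. The cKO libraries had 43.8, 38.9, 39.7, 47.3 and 40.2 CPM on the contralateral and 56.4, 59.9, 57.1, 55.3 and 56.4 CPM on the ipsilateral side. No ranges of the sides overlapped, Hdac9 was higher in 10 of 10 mice, and the ipsilateral libraries of both genotypes reached a like level from a contralateral level that was lower in 4 of the 5 cKO libraries than in any control. The edgeR log2 fold change was 0.22 (SE 0.0467, adjusted p 8.413e-04) in control and 0.44 (SE 0.0468, adjusted p 2.610e-07) in cKO mice, or 16.8% and 35.8%. The interaction was 0.22 (95% interval 0.08 to 0.35), with an unadjusted p of 0.00369 but an adjusted p of 0.485 in edgeR over all genes, so the larger rise in cKO mice did not pass. Of the 6 fibroblast markers, 0 were called in either genotype or for the interaction, with median log2 fold changes of 0.32 after injury in control and -0.48 in cKO mice and -0.78 for the interaction. With their mean log2 CPM as a covariate the rise of Hdac9 was 0.27 in control and 0.39 in cKO mice, both still called, and its interaction 0.12. The part of these markers in the Hdac9 values was not tested. The counts are of whole genes and do not tell the outer from the internal start shown for Hdac9.

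Hdac7, the class IIa enzyme best known from endothelial cells, had the lowest mean level per kb of the 10 genes. It had 8.83, 8.89, 6.64, 8.66 and 8.38 CPM in the control contralateral and 10.6, 10.4, 8.81, 10.2 and 10.4 CPM in the control ipsilateral libraries. In cKO mice it had 8.99, 11.7, 10.8, 8.59 and 10.2 CPM on the contralateral and 9.24, 11.6, 10.4, 9.1 and 12.6 CPM on the ipsilateral side. It was higher on the lesioned side in 5 of 5 control mice, although the ranges overlapped through the low value of H65, and in 3 of 5 cKO mice. The edgeR log2 fold change was 0.28 (SE 0.1, adjusted p 0.0387) in control and 0.08 (SE 0.1, adjusted p 0.613) in cKO mice, with an interaction of -0.20 (95% interval -0.50 to 0.09, adjusted p 0.628). The cKO value was 0.01 without H100, the mouse with the highest ipsilateral level.

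The control call of Hdac7 was lost when H62, H63, H65, H96 or H97 was left out (log2 fold changes 0.27 to 0.31, with adjusted p of 0.0802, 0.0656, 0.0579, 0.0713 and 0.0925). With all mice limma also lost it on the log2(FPKM + 0.1) scale (0.17, adjusted p 0.0903) and the log2(FPKM + 1) scale (0.04, adjusted p 0.105). The FPKM of Hdac7 were 0.128 to 0.24, so by construction both pseudocounts make these fold changes smaller. Of the 8 endothelial markers, 3 were called higher and 0 lower in control mice (median 0.39), and their summed level was 104.9 to 148.3 CPM on the contralateral and 124.1 to 179.3 CPM on the ipsilateral side. In cKO mice 0 of the 8 were called and the median was 0.08, with sums of 118.7 to 177.4 and 139.0 to 163.3 CPM. No endothelial marker was at 0, and their part in the Hdac7 values was not tested. With the mean log2 CPM of the fibroblast markers as a covariate, the log2 fold change of Hdac7 was 0.16 (adjusted p 0.101) in control and 0.21 (adjusted p 0.0301) in cKO mice, and its interaction turned from -0.20 to 0.05. What part the fibroblast markers had in the Hdac7 values was not tested either.

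Hdac6, the tubulin deacetylase of class IIb, rose in cKO mice. It had 28.7, 25.5, 27.4, 31.8 and 29.4 CPM on the contralateral and 33.1, 34.6, 32.6, 33.9 and 32.1 CPM on the ipsilateral side of cKO mice. In control mice it had 28.1, 33.2, 32.2, 32.1 and 31.1 CPM on the contralateral and 30.2, 31.8, 31.7, 33.5 and 33.1 CPM on the ipsilateral side. The cKO sides did not overlap and all 5 cKO mice were higher, while the control sides overlapped almost fully and 3 of 5 mice were higher. The edgeR log2 fold change was 0.22 (SE 0.0511, adjusted p 0.00224) in cKO and 0.03 (SE 0.0511, adjusted p 0.678) in control mice. The interaction of 0.18 (95% interval 0.03 to 0.34) had an unadjusted p of 0.0188 and an adjusted p of 0.485, so a difference between the genotypes did not pass. With the fibroblast covariate the values of Hdac6 were 0.18 in cKO mice, still called, 0.08 in control mice and 0.10 for the interaction. The part of the fibroblast markers in the Hdac6 values was not tested.

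**Figure D3:**
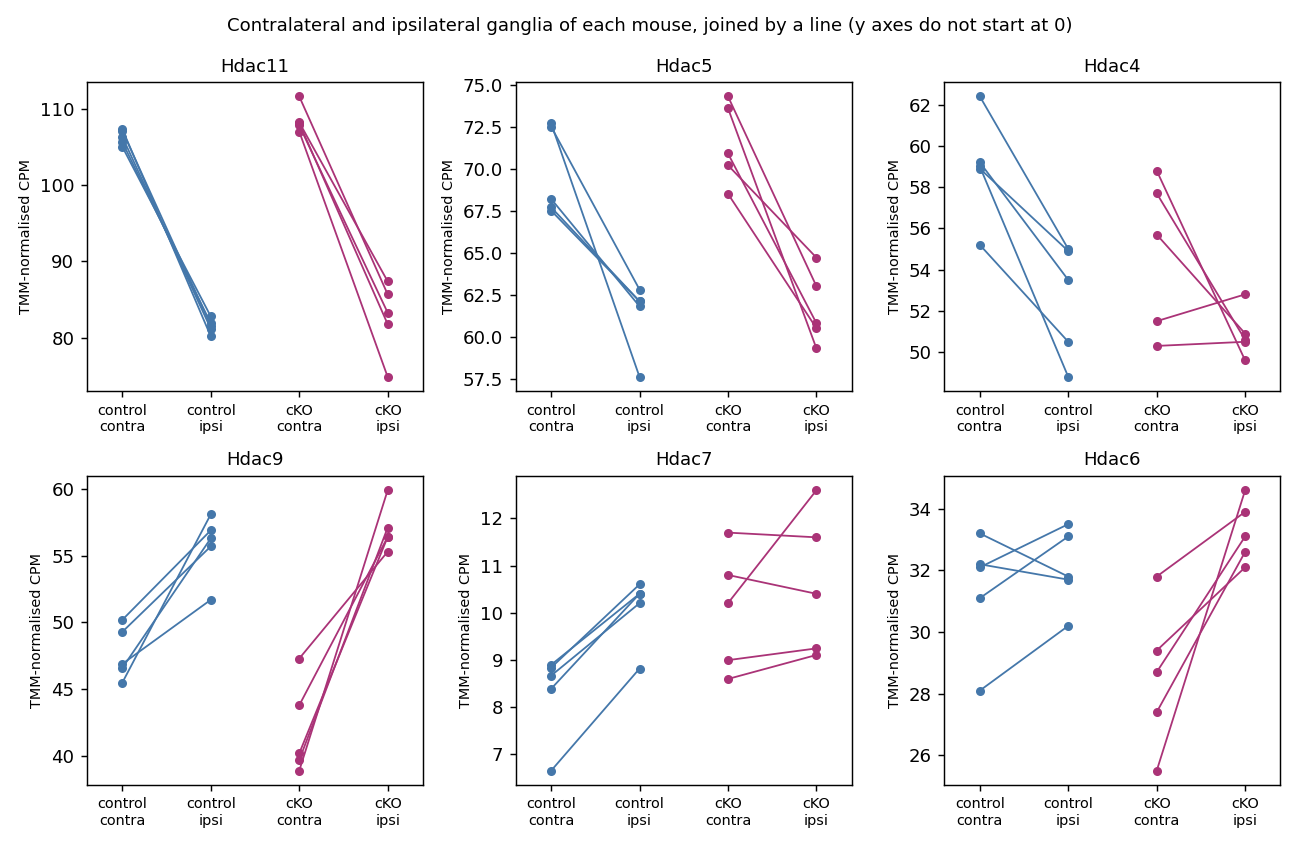
Each line joins the contralateral and ipsilateral library of 1 mouse, in TMM-normalised CPM, for the 6 members called in at least 1 genotype (axes do not start at 0). All 10 lines fall for Hdac11 and Hdac5 and all 10 rise for Hdac9, while for Hdac6 all 5 cKO lines rise and for Hdac4 all 5 control lines but only 3 cKO lines fall.

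The class I enzymes showed little movement. Hdac2, a core subunit of several corepressor complexes, had means of 113.8 ± 3.61, 112.7 ± 1.84, 111.7 ± 3.22 and 113.1 ± 2.51 CPM (SD, n = 5) in the control contralateral, control ipsilateral, cKO contralateral and cKO ipsilateral libraries. Its injury log2 fold change was -0.01 (95% interval -0.07 to 0.04) in control and 0.02 (-0.04 to 0.07) in cKO mice, so that a change beyond about these bounds lies outside the interval. Hdac3, the catalytic subunit of the NCoR complex, had 62.3 ± 2.14, 62.4 ± 2.15, 63.5 ± 1.82 and 61.9 ± 1.44 CPM in the same groups. Hdac8, which deacetylates the cohesin subunit SMC3, had 8.36 ± 0.545, 8.29 ± 0.757, 8.42 ± 0.47 and 8.62 ± 0.631 CPM. The intervals of Hdac3 (-0.06 to 0.07 and -0.10 to 0.03) were about as narrow as those of Hdac2, and those of Hdac8 (-0.15 to 0.13 and -0.10 to 0.17), with the fewest counts, were wider.

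Hdac1, the paralog of Hdac2 in the Sin3, NuRD and CoREST complexes, had 26.4 ± 1.07, 26.8 ± 1.01, 28.3 ± 1.88 and 27.5 ± 1.03 CPM, with injury log2 fold changes of 0.02 (95% interval -0.07 to 0.11) and -0.04 (-0.13 to 0.05). Its processed pseudogene Gm10093 was counted at 9.82 to 13.7 CPM per library, so the share of reads that belongs to Hdac1 itself is uncertain. Adding the pseudogene counts to Hdac1 gave 0.03 and -0.05 and changed no call.

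**Figure D4:**
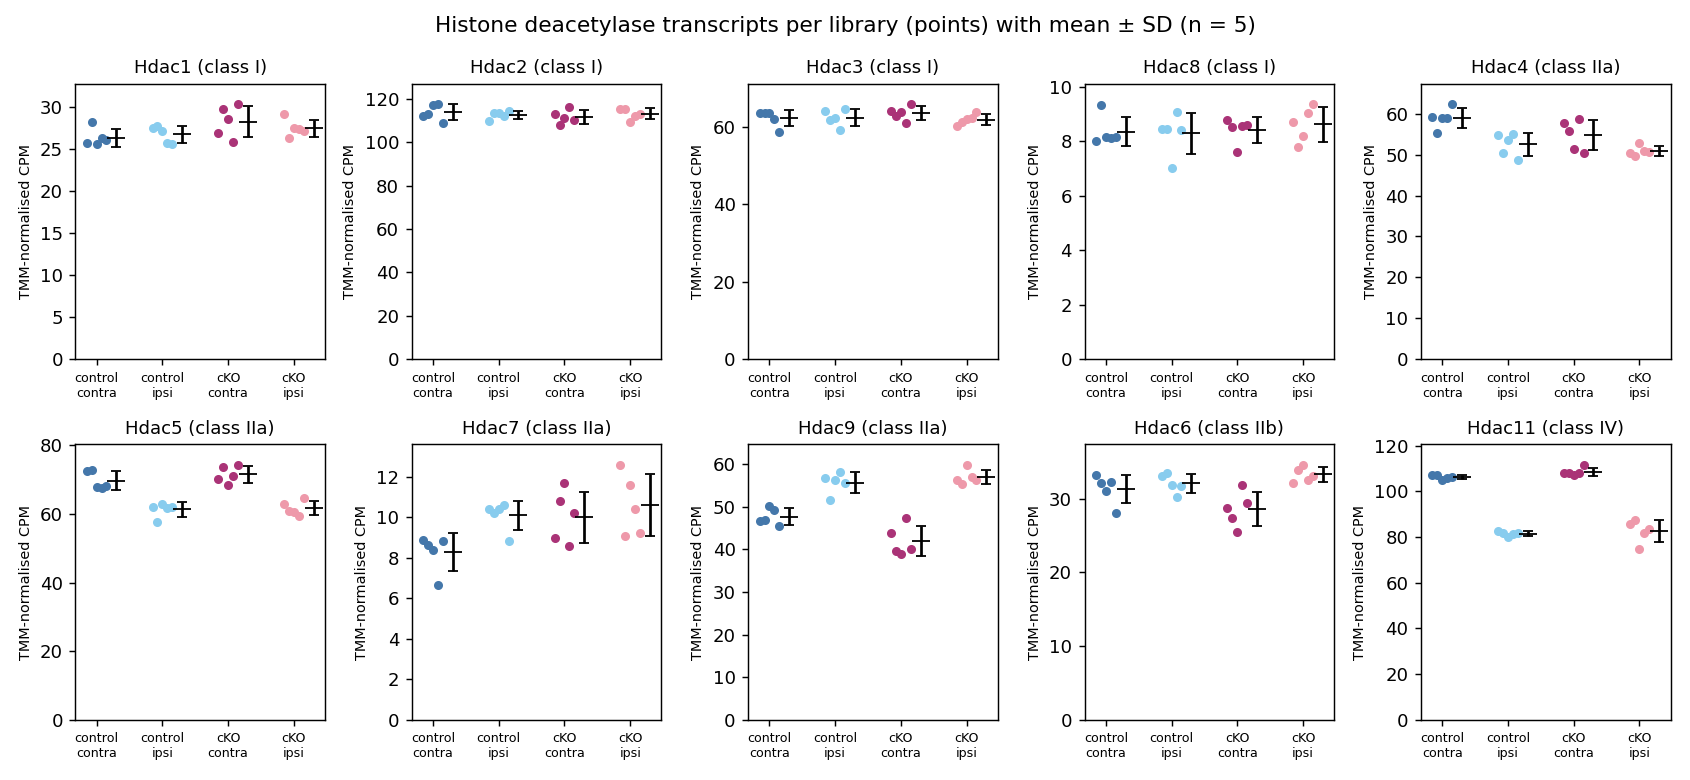
Each panel shows 1 gene, with a point per library in TMM-normalised CPM and the mean ± SD (n = 5) beside it, in the 4 groups. The ipsilateral groups of Hdac11 and Hdac5 lie below and those of Hdac9 above the contralateral groups, whereas the 4 groups of Hdac2, Hdac3 and Hdac8 overlap.

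Conditional knockout was compared with control on each side. On the contralateral side 0 members passed in edgeR, where 0.0735% of all tested genes passed, and 5 had an unadjusted p under 0.05, where 17.5% of all tested genes did. These were Hdac9 (log2 fold change -0.18, SE 0.0469, unadjusted p 8.027e-04, adjusted p 0.103), Hdac6 (-0.13, adjusted p 0.19) and Hdac4 (-0.11, adjusted p 0.226), with lower values in cKO, and Hdac7 (0.28, adjusted p 0.166) and Hdac1 (0.10, adjusted p 0.245), with higher values. The ranges of all 10 members overlapped between genotypes, where those of 1.52% of all tested genes did not, and Hdac11 was at 0.03 (95% interval -0.03 to 0.09). DESeq2 called 1 member, Hdac9 (-0.18, adjusted p 0.0173), among 1032 genes in all, where edgeR called 21.

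A single cKO mouse bore on this comparison. H99 had the highest cKO contralateral values of 3 of these genes, with 47.3 CPM for Hdac9 (38.9 to 43.8 in the other 4 mice), 31.8 for Hdac6 and 58.8 for Hdac4. Without H99, edgeR called 4 members, Hdac9 (-0.23, adjusted p 0.00388), Hdac6 (-0.17, adjusted p 0.0302), Hdac7 (0.33, adjusted p 0.0363) and Hdac1 (0.13, adjusted p 0.0443). In the same fit 3326 genes were called, against 21 with all mice. All 6 fibroblast markers had a higher mean in cKO on this side, with 0 called and a median of 0.81, and none was at 0. Their sum was 801.6 to 1356 CPM in control and 934.8 to 2236 CPM in cKO libraries, with 934.8 in H99, 1003 in H61, 1685 in H100, 1980 in H95 and 2236 in H64. The 7 neutrophil (median 0.73) and 9 macrophage (0.26) markers also had higher means, as had the 8 endothelial (0.14), 4 erythroid (0.45) and 5 muscle (1.43) markers, all with 0 called. Other lists did not move as a whole: 1 of 7 lymphocyte (-0.27) and 3 of 10 sensory neuron (-0.02) markers had higher means. So had 4 of 6 Schwann cell (0.03) and 3 of 5 satellite glia (0.06) markers, also with 0 called. The muscle sum was 1592 CPM in H100, which stood apart from 5.27 to 59.3 CPM in the other 4 cKO contralateral libraries, and leaving out H100 changed no genotype call of a member. With the fibroblast covariate the contralateral difference was -0.09 for Hdac9, -0.05 for Hdac6, 0.04 for Hdac7 and 0.02 for Hdac1, all with 0 calls. The fibroblast sums had a median of 838.1 CPM in control and 1685 CPM in cKO contralateral libraries. The parts of genotype and of these markers in the differences cannot be told apart here and were not tested. Other marker lists were not used as covariates.

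On the ipsilateral side 0 members passed, where 0.00700% of all tested genes passed, and 0 had an unadjusted p under 0.05, where 2.36% of all tested genes did. The ranges of all 10 overlapped, where those of 0.599% of all tested genes did not, and DESeq2 likewise called 0. All 10 differences lay between -0.05 and 0.07, and the widest interval was that of Hdac7 (-0.13 to 0.28), whose difference of 0.07 was 0.0048 without H100. Hdac9, at -0.18 on the contralateral side, was at 0.03 (-0.06 to 0.13) on the lesioned side. For the interaction 0 members passed in edgeR or DESeq2, where 0.00% of all tested genes passed in edgeR, and Hdac9 and Hdac6 had an unadjusted p under 0.05, where 9.80% of all tested genes did. Both of these share the cKO contralateral libraries with the genotype comparison.

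Partners and counterparts of the deacetylases were read from the same fit. Of 28 corepressor partners, 8 were called higher and 6 lower after injury in control, and 11 higher and 7 lower in cKO mice (median log2 fold change 0.04 and 0.07, beside -0.0047 and -0.03 for all genes). Over all tested genes 13.8% were called higher and 16.0% lower in control, and 16.2% and 15.1% in cKO mice, which is the background of this list and those that follow. Dnttip1, a subunit of the mitotic deacetylase complex with Hdac1 and Hdac2, had log2 fold changes of 0.45 and 0.54, with 16.6 ± 0.753 and 22.7 ± 1.19 CPM on the contralateral and ipsilateral side of control mice and 15.8 ± 1.02 and 23.0 ± 0.742 CPM on those of cKO mice. Gatad2a of the NuRD complex rose by 0.31 and 0.37. Rcor2, a CoREST scaffold, had log2 fold changes of -0.61 and -0.34 and Suds3 of the Sin3 complex of -0.21 and -0.23, all called lower. Partners of the class I enzymes thus moved in both directions while Hdac1, Hdac2 and Hdac3 had fold changes within 0.04 of 0.

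Regulators of the class IIa enzymes and the MEF2 factors they bind formed a list of 23 genes, with 3 called higher and 6 lower in control and 4 higher and 3 lower in cKO mice (medians 0.01 and -0.01). Camk1, a calcium-dependent kinase, rose in control mice from 45.7 ± 2.31 to 122.6 ± 6.65 CPM and in cKO mice from 46.2 ± 3.74 to 122.9 ± 14.2 CPM (log2 fold changes 1.42 and 1.41). Sik1, a salt-inducible kinase of class IIa deacetylases, rose by 1.00 and 0.72. Mef2c fell from 39.2 ± 2.57 to 26.3 ± 1.05 CPM and from 39.3 ± 3.92 to 25.8 ± 2.79 CPM (-0.58 and -0.60). Prkd1, protein kinase D1, and Camk2b, a calcium-dependent kinase subunit, were called lower in both genotypes (-0.41 and -0.18, and -0.32 and -0.22). The fold changes of Camk1, Sik1 and Mef2c exceeded those of Hdac4, Hdac5, Hdac7 and Hdac9 themselves in size.

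Among the 10 lysine acetyltransferases, which add the marks that deacetylases remove, 1 was called higher and 1 lower in each genotype, Kat6a (0.24) and Kat2a (-0.11) in control and Kat7 (0.20) and Hat1 (-0.12) in cKO mice. Of the 7 sirtuins, the NAD-dependent deacylases, Sirt5 (-0.31 and -0.23) and Sirt3 (-0.15 and -0.18) were called lower in both genotypes and Sirt6 higher in cKO mice (0.18). Of the 4 genes for substrates of HDAC6 and the opposing tubulin acetyltransferase, Cttn, encoding the actin-binding protein cortactin, was called higher (0.41 and 0.49) and the other three were not called. No gene of these 5 lists was called between genotypes on either side or for the interaction in edgeR.

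**Figure D5:**
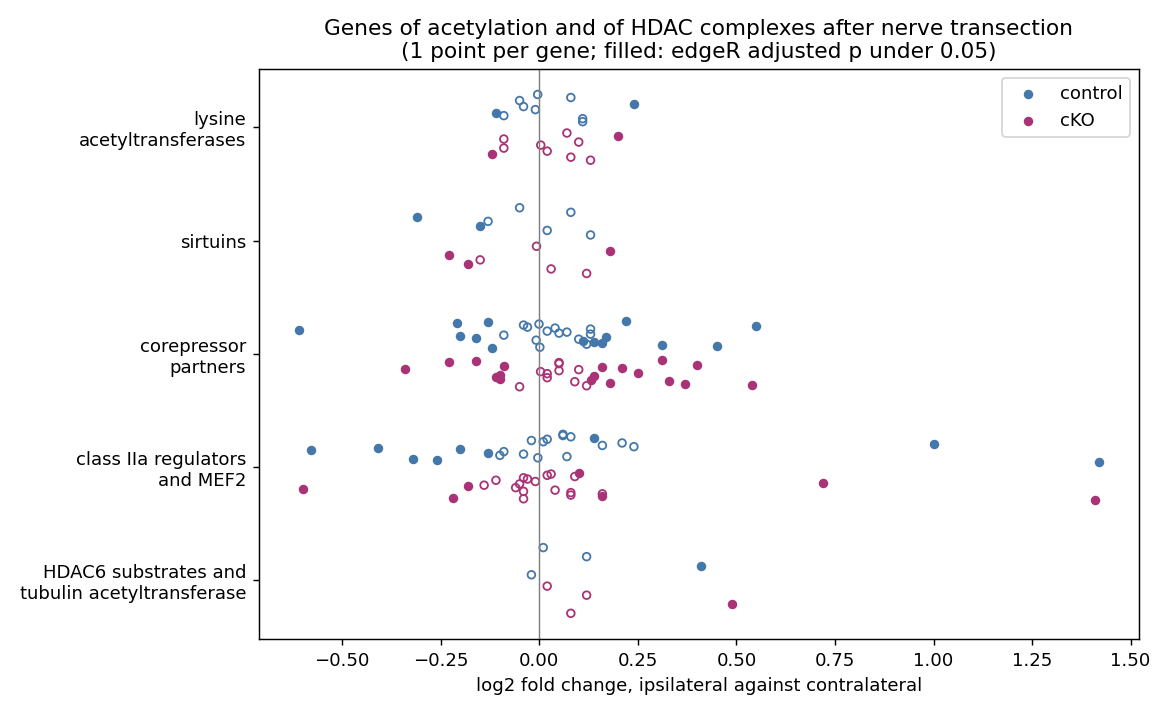
Each point is 1 gene of the 5 lists, placed by its edgeR log2 fold change of ipsilateral against contralateral ganglia in control and cKO mice (n = 5 per group), filled where the adjusted p was under 0.05. Camk1 and Sik1 lie farthest to the right, and Rcor2 and Mef2c farthest to the left.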

How the data were processed

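RNA of DRG was sequenced as stranded mRNA libraries with paired 150 bp reads, per the labels' protocols. The submitters' processing notes name HISAT2, Picard, mm10 and mm39 with no roles, so no coordinates of the counted genes are given. The authors deposited whole-number exonic counts per gene, and FPKM that equal CPM divided by the gene span with introns (within 5% for 93% of 18786 genes), which were therefore used only within genes, in an alternative. Symbols came from GENCODE M21 by identifier (51487 of 78258, with 98.1% of counts).

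Counts were fitted in R 4.3.3 with edgeR 4.0.16 (filterByExpr with minimum count 10 and minimum total 15, TMM, robust quasi-likelihood test) on all 20 libraries with 1 mean per group. Benjamini-Hochberg adjustment ran over 28564 genes, with calls at an adjusted p under 0.05. CPM are TMM-normalised. The script was tested on simulated data. Replicates differed by more than counting error (chi-square per degree of freedom 5.11 to 55.3 over 40 pairs).

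Both libraries of a mouse share its number in the library names (1 title gives H6 for H61), and how far they deviated together, as a correlation across genes, had a median of 0.186 (-0.0546 to 0.361, over 0.1 in 7 of 10 mice). The mouse as a replicate block was an alternative, beside DESeq2 1.42.0, limma 3.58.1 (voom, and log2 FPKM with pseudocounts of 1 and 0.1), other scalings and filters, only the libraries compared, a fibroblast covariate, and leaving out each mouse. In edgeR the mouse was a fixed block, for the injury comparisons and the interaction. In limma-voom it was a random effect, for the genotype comparisons. Summing Hdac1 with its pseudogene was chosen after seeing the data.

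Members, lists, motifs and alternatives were chosen with earlier results of these data known. Named were all members and, per list and injury comparison, the 2 highest and 2 lowest log2 fold changes among called genes reaching a group mean of 5 CPM, with Ahr, Atf3 and Thy1 as checks and the 3 genes most correlated with Hdac11. Proteins were not used here, and 1 further gene list is not reported here.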

Additional observations from a re-analysis of the deposited data

Results flagged for a closer look

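In 7 of 40 groups of 5 libraries (10 members in 4 groups), 1 library stood apart from the other 4 by Dixon's ratio of its gap to the range (critical value 0.71), where chance gives about 2. In the control contralateral group, H96 was highest for Hdac1 (28.3 against a next value of 26.3 CPM, ratio 0.758) and for Hdac8 (9.33 against 8.15 CPM, ratio 0.906), and H65 was lowest for Hdac7 (6.64 against 8.38 CPM, ratio 0.772). In the control ipsilateral group H65 was again lowest for Hdac7 (8.81 against 10.2 CPM, ratio 0.748) and H96 lowest for Hdac5 (57.6 against 61.8 CPM, ratio 0.804). In the cKO contralateral group H64 was lowest for Hdac8 (7.59 against 8.53 CPM, ratio 0.789) and H100 highest for Hdac11 (111.6 against 108.2 CPM, ratio 0.748). H65 thus had the lowest Hdac7 of its group on both sides, and its own ipsilateral value was above its contralateral one.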

How the results depend on the processing

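Of 1040 log2 fold changes of members under an alternative, 984 kept their direction and side of the threshold, 9 lost and 8 gained a call, and 39 changed sign, all of these called in neither fit. The injury calls of Hdac11, Hdac9 and Hdac5 in both genotypes and of Hdac6 in cKO mice held without each mouse. They also held under every alternative that keeps all mice and was fitted to the injury comparisons. Of the 12 that keep all mice, the random mouse effect was fitted to the genotype comparisons alone. The replicate block kept 5, 4, 0, 0 and 0 members called and changed no call. Members called for injury in control ranged from 3 (without H65) to 5 when a mouse was left out. On the contralateral side DESeq2 gave 1 (of 1032 genes called) and leaving out a mouse 0 to 4 (without H99, of 3326), against 0 (of 21). With log2 FPKM and a pseudocount of 1, Hdac9 came to 0.01 and 0.02, still called, since its FPKM (0.0463 to 0.0686, over a span of 869516 bases) lie far under the pseudocount.

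Apart from the interaction of Hdac7 (-0.20), the sign changes were of values within 0.06 of 0, and their cause was not tested. With the fibroblast covariate the values were -0.02 for Hdac1, 0.0040 for Hdac2 and 0.02 for Hdac8 (injury in control), -0.00043 for Hdac2 and -0.0017 for Hdac8 (injury in cKO), 0.0075 for Hdac2 (contralateral), and 0.02 for Hdac1, -0.0044 for Hdac2, -0.02 for Hdac8 and 0.05 for Hdac7 (interaction). With log2 FPKM they were -0.01 for Hdac3 (injury in control, both pseudocounts), -0.0071 and -0.0059 for Hdac2 (injury in cKO) and 0.0017 and 0.0013 for Hdac3 (ipsilateral). With only the libraries compared they were 0.0030 for Hdac2 and 0.0039 for Hdac8 (injury in control). Leaving out a mouse gave -0.00057 to 0.02 for Hdac3, -0.06 to 0.04 for Hdac8 and -0.03 to 0.02 for Hdac2 (injury in control), -0.0059 to 0.06 for Hdac8 and -0.04 to 0.0046 for Hdac2 (contralateral), -0.0023 to 0.02 for Hdac2, -0.01 to 0.03 for Hdac5, -0.03 to 0.0079 for Hdac3 and -0.0015 to 0.05 for Hdac11 (ipsilateral), -0.0025 to 0.09 for Hdac8 and -0.04 to 0.02 for Hdac11 (interaction).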
